A study of Bos taurus with 6 samples.

Results

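Aminoacyl-tRNA synthetases, the enzymes that load amino acids onto their tRNAs, were examined in fibroblasts cultured from the stroma of the bovine ovary. Members were found by gene symbol: the synthetase symbols of the cytosol and of the mitochondrion, and the scaffold proteins AIMP1 and AIMP2. The rule found 34 of the 18010 genes measured, each on 1 row of the array: 17 cytosolic enzymes, 15 mitochondrial enzymes and 2 scaffolds. GARS1 and KARS1 serve both compartments and were counted with the cytosolic enzymes. Rows naming FARSB or NARS1 together with a second symbol were left out, and VARS2 was not analysed here. Of the groups, 3 samples were stromal cells from ovarian tumor and 3 were stromal cells from normal ovary (Bos taurus). Both were grown in DMEM/F12 medium with FKS and received no treatment. The type of tumor, the animals, their age and the number of passages are not stated in the labels. The p-values therefore reflect the spread among these 6 samples alone, and that spread may be technical.

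Each tRNA carries its amino acid to the ribosome, and a dedicated synthetase joins the pair at the cost of ATP. In animals most amino acids have 2 nuclear genes, for an enzyme in the cytosol and an enzyme imported into the mitochondrion. Several cytosolic enzymes sit in a multisynthetase complex held together by the scaffolds AIMP1, AIMP2 and EEF1E1. Uncharged tRNA is sensed by the kinase GCN2, which phosphorylates the initiation factor eIF2 and so raises translation of the transcription factor ATF4. Many cytosolic synthetase genes are known targets of ATF4 in human and mouse cells, together with genes of amino acid synthesis and transport.

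The values are log2 expression values made by the authors with RMA, a method that subtracts background, brings the arrays to a common distribution and combines the probes of a gene. Sample medians lay between 4.45 and 4.55. Pearson correlations over all rows were 0.9882 to 0.9909 between tumor samples, 0.9832 to 0.9906 between normal samples and 0.9541 to 0.9737 across the groups. As a guide to background, 95% of the group means of olfactory receptor genes, which act in sensory neurons, were below 3.54. All members stood above that level in each sample except MARS2 in tumor 1, at 3.43. Levels on an array cannot be compared between genes, so each gene is compared only with itself.

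Tumor cells had less mRNA of most cytosolic synthetases than normal cells, while most mitochondrial synthetases did not pass the test. Of 34 members, 13 fell and 0 rose at an adjusted p of 0.05 (limma, Benjamini-Hochberg adjustment over all genes). Over all genes, 9.44% fell and 8.56% rose. By compartment, 10 of 17 cytosolic synthetases fell, 2 of 15 mitochondrial synthetases fell, and 1 of 2 scaffolds fell. The median log2 fold change was -0.55 for the cytosolic and -0.10 for the mitochondrial enzymes, against 0.02 for all genes. In sign alone, 16 of 17 cytosolic and 10 of 15 mitochondrial enzymes had a negative log2 fold change. In bulk samples, fewer cells of a type and less RNA per cell cannot be told apart.

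The size of these counts rested on particular samples. The number of cytosolic synthetases that fell was 2 when tumor replicate 1 or 2 was omitted, 6 for tumor replicate 3, 3 for normal replicate 2 and 5 for normal replicate 3. It was 12 without normal replicate 1. Over all genes the number called also dropped with fewer samples, to 1765 without normal replicate 2 against 3242 with all samples. The direction held throughout: the median of the cytosolic enzymes lay between -0.69 and -0.52 in the 6 fits with 1 sample left out. Of the mitochondrial enzymes, 1 fell without tumor replicate 1 or 2 or normal replicate 1 or 2, and HARS2 rose without tumor replicate 2 (adjusted p = 0.037).

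**Figure D1:**
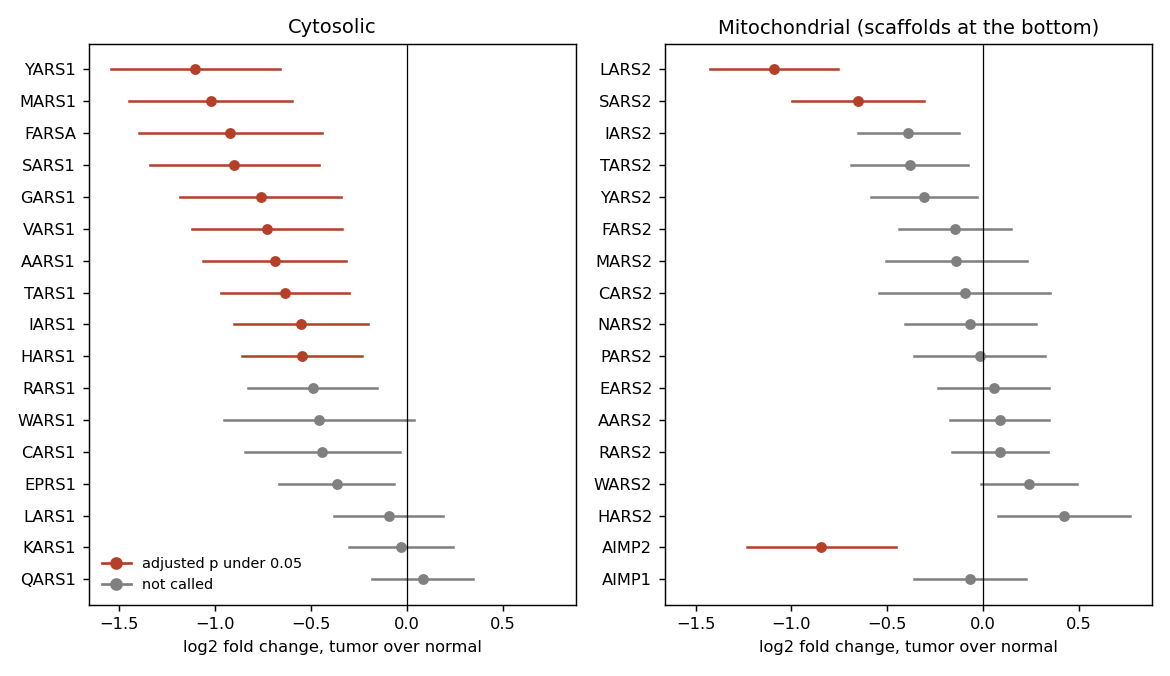
Log2 fold change of each member (x axis, tumor over normal) with its 95% confidence interval from limma (line). Cytosolic enzymes are in the left panel, mitochondrial enzymes and the scaffolds AIMP2 and AIMP1 in the right panel, and red marks the 13 members with an adjusted p under 0.05, all of them to the left of 0.

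YARS1, the tyrosine enzyme, had the largest log2 fold change of the family. It stood at 7.57, 7.78 and 7.88 in tumor cells, against 8.50, 9.22 and 8.82 in normal cells. The groups did not overlap, and the fall was 2.15-fold (log2 fold change -1.10 ± 0.19, SE; adjusted p = 0.00745). MARS1 charges both the initiator and the elongator methionine tRNA. Its log2 values were 7.67, 7.63 and 7.94 in tumor cells, against 8.40, 9.05 and 8.86 in normal cells, a 2.03-fold fall (-1.02 ± 0.18; adjusted p = 0.00856). YARS1 and MARS1 were the only cytosolic enzymes that kept their call whichever sample was omitted.

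FARSA, the catalytic alpha subunit of the phenylalanine enzyme, was at 7.0, 7.09 and 7.57 in tumor cells, against 7.86, 8.08 and 8.48 in normal cells. It fell 1.89-fold (log2 fold change -0.92 ± 0.21; adjusted p = 0.0201), a call lost without tumor replicate 1 or 2 or normal replicate 2. SARS1 charges serine tRNAs and also the selenocysteine tRNA, which receives serine first. It had 8.80, 8.92 and 9.11 in tumor cells, against 9.53, 10.24 and 9.76 in normal cells, and fell 1.87-fold (-0.90 ± 0.19; adjusted p = 0.0161). Its call was lost without tumor replicate 1 or 2. GARS1, whose single gene makes the glycine enzyme of both compartments, was at 9.41, 9.45 and 9.80 in tumor cells, against 10.03, 10.63 and 10.29 in normal cells. The fall of 1.70-fold (-0.76 ± 0.18; adjusted p = 0.0251) was lost without tumor replicate 1 or 2 or normal replicate 2 or 3.

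VARS1, the valine enzyme, which binds the elongation factor 1 complex, showed very close tumor values. They were 6.63, 6.64 and 6.56, against 7.08, 7.23 and 7.71 in normal cells, a 1.66-fold fall (log2 fold change -0.73 ± 0.17; adjusted p = 0.0227). AARS1, the alanine enzyme, was at 9.09, 9.25 and 9.26 in tumor cells, against 9.62, 10.20 and 9.85 in normal cells (-0.69 ± 0.16; adjusted p = 0.0233). In both genes every tumor sample lay below every normal sample. The VARS1 call was lost without any 1 tumor sample or normal replicate 2, and the AARS1 call without any sample except normal replicate 1.

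TARS1, IARS1 and HARS1 had the smallest changes among the called cytosolic enzymes. TARS1, the threonine enzyme, was at 9.55, 9.69 and 9.79 in tumor cells, against 10.08, 10.52 and 10.34 in normal cells (log2 fold change -0.64 ± 0.14; adjusted p = 0.0208). IARS1, the isoleucine enzyme of the multisynthetase complex, was at 9.22, 9.19 and 9.35 in tumor cells, against 9.53, 10.05 and 9.83 in normal cells (-0.55 ± 0.15; adjusted p = 0.0412). Tumor values lay below all normal values in each of the 3. HARS1, the histidine enzyme, was at 7.49, 7.25 and 7.41 in tumor cells, against 7.72, 8.03 and 8.04 in normal cells (-0.55 ± 0.13; adjusted p = 0.0282). The calls of IARS1 and HARS1 were lost without any sample except normal replicate 1, and that of TARS1 without tumor replicate 1 or 2 or normal replicate 2 or 3. With the replicate number as a block, neither IARS1 nor HARS1 passed.

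**Figure D2:**
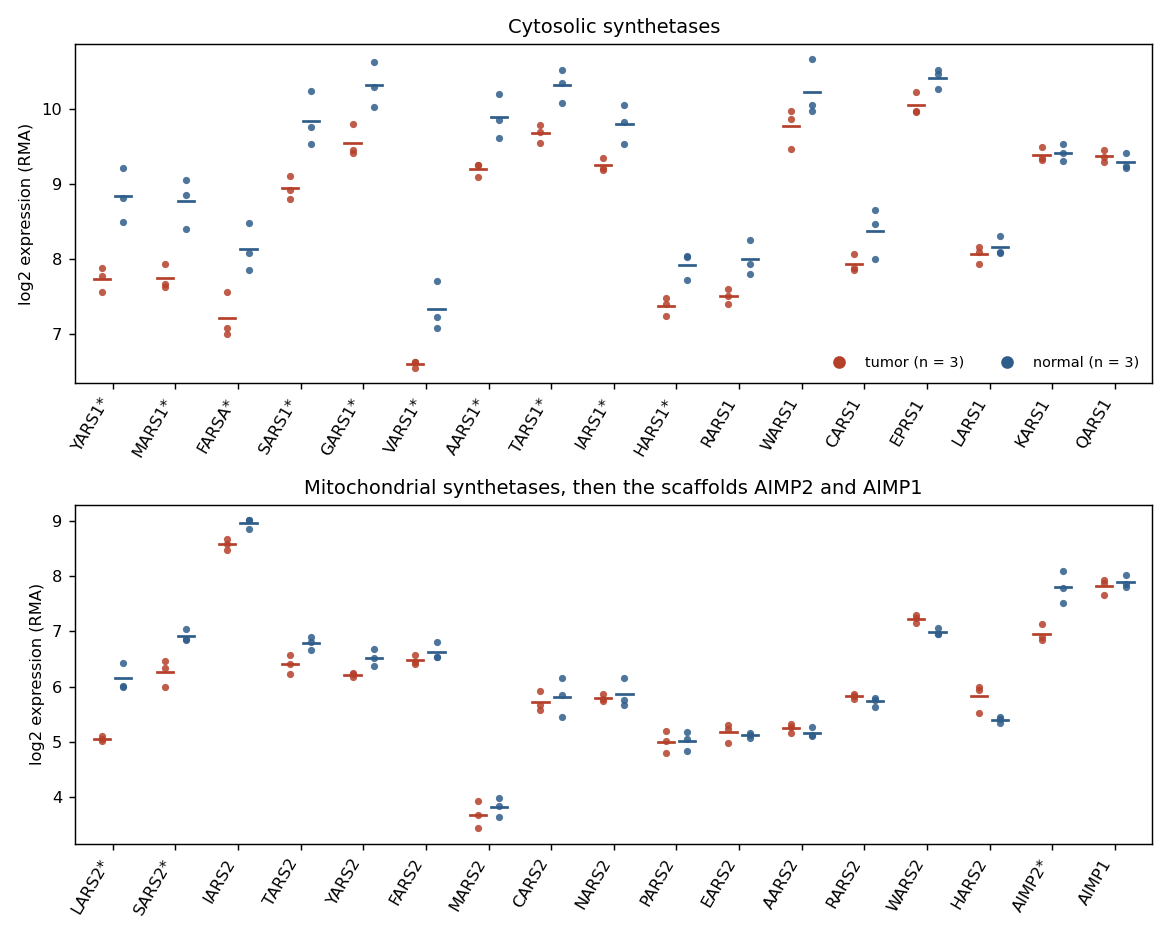
Log2 expression of each member (y axis) in each tumor sample (red, left of each pair) and each normal sample (blue, right), with bars at the group means and an asterisk at the 13 members called. The red points lie below the blue points in all 10 called cytosolic enzymes, while KARS1, QARS1, LARS1 and most mitochondrial enzymes have overlapping points.

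The other 7 cytosolic enzymes were not called. RARS1, the arginine enzyme, came closest: it stood at 7.51, 7.41 and 7.61 in tumor cells, against 7.80, 7.94 and 8.26 in normal cells. Its log2 fold change was -0.49 ± 0.15 (adjusted p = 0.054; 0.036 without normal replicate 1), and its groups did not overlap. EPRS1, the fused enzyme for glutamate and proline, also had groups that did not overlap, with a log2 fold change of -0.37 ± 0.13 (adjusted p = 0.092). CARS1, the cysteine enzyme, differed by -0.44 ± 0.18 (adjusted p = 0.132; 0.023 without normal replicate 1).

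WARS1, the tryptophan enzyme and a gene that interferons are known to induce, was at 9.47, 9.87 and 9.97 in tumor cells, against 10.05, 10.66 and 9.97 in normal cells. The groups touched at 9.97, and the log2 fold change was -0.46 ± 0.21 (adjusted p = 0.197). Of 21 measured genes of the interferon response, 5 rose and 0 fell in the same fit, where 8.56% of all genes rose and 9.44% fell. Of the 21, 8 were under the olfactory receptor level of 3.54 in both groups. IFI6, an interferon-induced mitochondrial membrane protein, rose by 2.78 ± 0.54 on the log2 scale. Its values were 9.19, 8.77 and 11.1 in tumor cells, against 7.33, 6.70 and 6.70 in normal cells. The RNA sensor IFIH1 also rose, at 5.11, 4.47 and 4.83 in tumor cells, against 2.91, 3.07 and 2.62 in normal cells, where it was under 3.54. Tumor 3 had the highest mean of this list. The mean deviation from each gene's own mean over the 6 samples was 0.12, 0.06 and 0.65 in tumor cells, against -0.23, -0.23 and -0.38 in normal cells.

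LARS1, QARS1 and KARS1 differed least among the cytosolic enzymes. Their 95% confidence intervals bound any change: -0.38 to 0.19 for LARS1, the leucine enzyme and a known leucine sensor, -0.18 to 0.35 for QARS1, the glutamine enzyme, and -0.30 to 0.24 for KARS1, the lysine enzyme. KARS1, which like GARS1 makes the enzyme of both compartments, was at 9.50, 9.32 and 9.35 in tumor cells, against 9.31, 9.54 and 9.41 in normal cells.

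LARS1, QARS1, KARS1, EPRS1 and RARS1 are all enzymes of the multisynthetase complex. Of its 7 measured enzymes, 2 fell, MARS1 and IARS1. Of the 10 measured cytosolic enzymes outside the complex, 8 fell, and WARS1 and CARS1 were not called. The share of all genes that fell, to set beside both counts, was 9.44%. The median log2 fold change was -0.71 for the enzymes outside the complex and -0.37 for those inside it. This contrast was not tested, since the enzymes of a cell are not replicates, and the count outside the complex was 1 when tumor replicate 1 or 2 was omitted, 5 for tumor replicate 3, 2 for normal replicate 2 and 4 for normal replicate 3. The count inside it was 1 in each fit with 1 sample left out, except 3 without normal replicate 1.

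The scaffolds of the complex differed from each other. AIMP2 was at 7.14, 6.89 and 6.85 in tumor cells, against 7.52, 7.79 and 8.10 in normal cells, a 1.79-fold fall (log2 fold change -0.84 ± 0.17; adjusted p = 0.0129; 0.052 without tumor replicate 2). AIMP1 was at 7.66, 7.88 and 7.94 in tumor cells, against 7.80, 7.86 and 8.02 in normal cells, with overlapping groups (-0.07 ± 0.13; adjusted p = 0.787). EEF1E1, the remaining scaffold, was at 4.81, 4.83 and 5.39 in tumor cells, against 5.91, 6.57 and 6.67 in normal cells. It fell by 1.37 ± 0.24 on the log2 scale (adjusted p = 0.00763), with groups that did not overlap.

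Among mitochondrial synthetases the leucine enzyme LARS2 stood out by its size. It was at 5.01, 5.11 and 5.05 in tumor cells, against 6.01, 6.0 and 6.43 in normal cells. The fall was 2.13-fold (log2 fold change -1.09 ± 0.14; adjusted p = 0.00249) and kept its call whichever sample was omitted. SARS2, the mitochondrial serine enzyme, was at 6.0, 6.34 and 6.47 in tumor cells, against 7.05, 6.84 and 6.87 in normal cells (-0.65 ± 0.15; adjusted p = 0.0217). Its call was lost without tumor replicate 1 or 2, without normal replicate 1 or 2, and with the replicate block.

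The 13 uncalled mitochondrial enzymes had log2 fold changes on both sides of 0. IARS2, the isoleucine enzyme, had groups that did not overlap, at 8.48, 8.58 and 8.67 in tumor cells, against 9.02, 9.02 and 8.86 in normal cells, and differed by -0.39 ± 0.11 (adjusted p = 0.0513). TARS2 (-0.38 ± 0.13) and YARS2 (-0.31 ± 0.12) also had groups that did not overlap. FARS2, MARS2, CARS2, NARS2 and PARS2, for phenylalanine, methionine, cysteine, asparagine and proline, lay between -0.15 and -0.02, and EARS2, AARS2 and RARS2, for glutamate, alanine and arginine, between 0.06 and 0.09. The signs of CARS2, NARS2, PARS2 and EARS2 turned in at least 1 fit with a sample left out.

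HARS2 and WARS2 were the members with groups that did not overlap and higher tumor values. HARS2, the mitochondrial histidine enzyme, was at 5.94, 5.52 and 6.0 in tumor cells, against 5.41, 5.33 and 5.45 in normal cells (log2 fold change 0.42 ± 0.15; adjusted p = 0.0929). WARS2, the mitochondrial tryptophan enzyme, was at 7.24, 7.30 and 7.16 in tumor cells, against 7.07, 6.96 and 6.95 in normal cells (0.24 ± 0.11; adjusted p = 0.177). Neither passed with all samples. Over the family, groups did not overlap in 18 members with lower and 2 with higher tumor values, where 18.1% and 17.6% of all genes did so.

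For 14 pairs the same amino acid had a measured enzyme in each compartment, with EPRS1 set against both EARS2 and PARS2. In 13 of the 14 pairs the cytosolic enzyme had the more negative log2 fold change, and the cytosolic minus the mitochondrial change had a median of -0.50 over the 14. HARS1 and HARS2, which are neighbouring genes in the bovine genome, had opposite signs, and the change of HARS1 minus that of HARS2 was -0.97. The difference was -0.88 for MARS1 and MARS2, -0.80 for YARS1 and YARS2, and -0.78 for AARS1 and AARS2. Leucine was the exception, where LARS1 minus LARS2 gave 0.997. In serine, isoleucine and threonine the enzymes of both compartments lay closest, with differences of -0.25, -0.16 and -0.25.

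The difference between the 2 log2 values of a pair was compared across the groups with a two-sided exact permutation test. With 3 samples against 3 the smallest p it can give is 0.1, which 10 pairs reached, among them HARS, MARS, YARS, AARS and LARS (p adjusted over the 14 pairs = 0.14). No pair could therefore pass a threshold of 0.05, and the pairs share the same 6 samples.

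**Figure D3:**
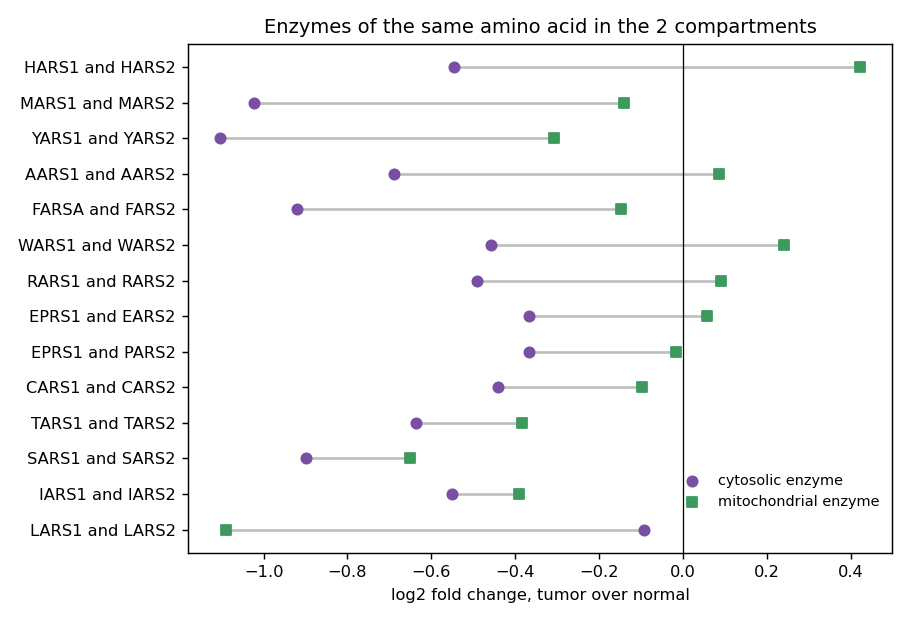
Log2 fold change (x axis, tumor over normal) of the cytosolic enzyme (purple circle) and the mitochondrial enzyme (green square) for each of 14 pairs, joined by a grey line. In 13 pairs the circle lies to the left of the square, and in the leucine pair LARS1 and LARS2 the square lies at -1.09.

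Cytosolic enzymes varied among the normal samples more than among the tumor samples. The median SD over the cytosolic enzymes was 0.12 in tumor cells and 0.29 in normal cells, and the SD was larger in normal cells for 16 of 17. It was larger in normal cells for 7 of 15 mitochondrial enzymes and 1 of 2 scaffolds. Over all genes the median SDs were 0.15 in tumor cells and 0.16 in normal cells. Normal 1 was the lowest normal sample for 14 of the 17 cytosolic enzymes and normal 2 the highest for 12. Tumor 3 was the highest tumor sample for 13 of them. For the cytosolic enzymes the mean deviation from each gene's own mean over the 6 samples was -0.36, -0.33 and -0.17 in tumor cells, against 0.05, 0.46 and 0.34 in normal cells, so normal 1 lay nearest to the tumor samples. For the mitochondrial enzymes the same mean was -0.12, -0.12 and 0.003 in tumor cells, against 0.02, 0.08 and 0.14 in normal cells.

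Genes that act next to the synthetases were followed through fixed lists. Over all genes, 9.44% fell and 8.56% rose, the shares to set beside the count of each list. Of 17 measured partners of tRNA charging, 8 fell and 0 rose, with a median log2 fold change of -0.39 (6 to 8 fell with 1 sample left out). PSTK, the kinase that acts on seryl-tRNA in selenocysteine synthesis, fell by 1.41 ± 0.18 on the log2 scale. It was at 3.64, 3.89 and 3.63 in tumor cells, close to the olfactory receptor level of 3.54, against 4.85, 5.05 and 5.48 in normal cells. QRSL1 (-1.05 ± 0.17) and GATB (-0.63 ± 0.16) fell, while GATC differed by -0.16 ± 0.18 (adjusted p = 0.621). These 3 subunits form the amidotransferase that makes mitochondrial glutaminyl-tRNA from glutamyl-tRNA. MTFMT, which formylates the mitochondrial initiator methionyl-tRNA, fell by 1.05 ± 0.12. PTRHD1, of the peptidyl-tRNA hydrolase family, fell by 1.26 ± 0.16, the tRNA exporter XPOT by 0.74 ± 0.14 and the D-aminoacyl-tRNA deacylase DTD1 by 0.47 ± 0.13. The calls of GATB and DTD1 were lost without any sample except normal replicate 1.

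Of 31 measured genes of tRNA splicing, processing and modification, 6 fell and 0 rose, with a median of -0.21. The number was 3 without tumor replicate 1 or 2 or normal replicate 2. POP1, a protein of ribonuclease P, fell by 1.68 ± 0.25 on the log2 scale, and NSUN2, a cytosine methyltransferase of tRNA, by 0.79 ± 0.14. DUS1L, TRMT1, DUS3L and DUS2 fell by 0.77 to 0.41, but DUS2 and DUS3L lost their call without any 1 sample, DUS1L without tumor replicate 2 or normal replicate 2, and TRMT1 without tumor replicate 1. Of 33 genes of mitochondrial translation, tRNA and transcription, 8 fell and 0 rose, with a median of -0.35. Here the number was 5 without tumor replicate 1 or normal replicate 3 and 4 without tumor replicate 2 or normal replicate 2. TFB1M, a methylase of mitochondrial ribosomal RNA, fell by 1.06 ± 0.11, the initiation factor MTIF2 by 1.04 ± 0.17 and HSD17B10, a subunit of mitochondrial ribonuclease P, by 0.89 ± 0.14. The elongation factor GFM1 fell by 0.87 ± 0.18, which did not hold without tumor replicate 1 or 2 or normal replicate 2. Of 12 factors of cytosolic elongation and termination, 2 fell, EIF5A by 0.82 ± 0.14 and the release factor GSPT1 by 0.64 ± 0.14. The GSPT1 call was lost without tumor replicate 1 or 2 or normal replicate 2. The elongation factor EEF2 differed by 0.09 ± 0.11 (adjusted p = 0.625).

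**Figure D4:**
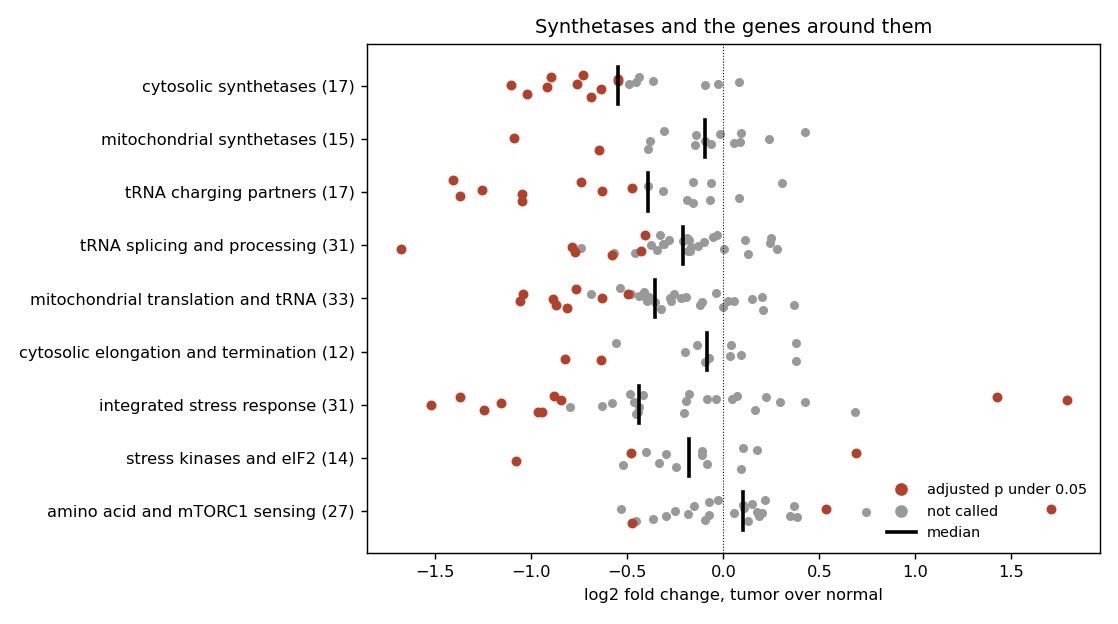
Log2 fold change (x axis, tumor over normal) of each measured gene of the 2 compartments and of 7 fixed lists (rows, number of genes in brackets), with red for an adjusted p under 0.05, grey for genes not called and a black bar at the median. The medians run from -0.55 in the cytosolic synthetases to 0.10 in the list of amino acid and mTORC1 sensing, and vertical position within a row has no meaning.

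Of 31 measured genes of the integrated stress response, 8 fell and 2 rose, where 9.44% of all genes fell and 8.56% rose. The median log2 fold change was -0.44. Omitting tumor replicate 1 or 2 or normal replicate 2 reduced the 8 to 6, while omitting normal replicate 1 raised them to 13. The 8 called with all samples act in amino acid synthesis, amino acid transport and one-carbon metabolism. Other measured genes of these functions were not called. Among them, PHGDH differed by -0.80 ± 0.26 (adjusted p = 0.0743) and SHMT2 by -0.21 ± 0.14 (adjusted p = 0.390). PYCR1 differed by 0.07 ± 0.17 (adjusted p = 0.835) and SLC38A2 by -0.04 ± 0.10 (adjusted p = 0.857). PSPH and PSAT1, of serine synthesis, fell by 1.52 ± 0.29 and 1.37 ± 0.25. The cystine carrier SLC7A11 fell by 1.25 ± 0.25 but not without tumor replicate 2, and the carrier of large neutral amino acids SLC7A5 by 1.16 ± 0.23, a call lost without normal replicate 2. ASNS, asparagine synthetase and a textbook ATF4 target, was at 9.43, 9.44 and 9.70 in tumor cells, against 10.01, 10.77 and 10.44 in normal cells (adjusted p = 0.0195), a call lost without tumor replicate 1 or 2 or normal replicate 2 or 3. CBS, SLC1A4 and MTHFD2 were the remaining genes that fell, and CBS lost its call without tumor replicate 1.

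The 2 genes of the list that rose were ATF3 and PPP1R15A, and 2 of 31 is no larger a share than that of all genes that rose. ATF3, a stress-induced transcription factor, was at 6.32, 7.61 and 7.42 in tumor cells, against 5.42, 5.15 and 5.41 in normal cells, a rise of 1.79 ± 0.31 on the log2 scale. PPP1R15A, which directs the dephosphorylation of eIF2, rose by 1.42 ± 0.21. The mRNA of ATF4 itself, which is controlled largely at translation, differed by -0.20 ± 0.12 (adjusted p = 0.314), that of DDIT3 by 0.22 ± 0.15 (adjusted p = 0.383) and that of TRIB3 by -0.63 ± 0.27 (adjusted p = 0.152). ASNS, CBS, SLC1A4, MTHFD2, PHGDH, SHMT2, PYCR1, SLC38A2, ATF4, DDIT3, TRIB3, DDIT4 and VLDLR were picked after their values were seen. The mean deviation of this list was -0.30, -0.10 and -0.05 in tumor cells, against 0.06, 0.45 and -0.07 in normal cells. The list mean of normal 3 thus lay among those of the tumor samples. Some uncalled genes were low in normal 3, among them DDIT4 (8.29, 7.73 and 5.65 in normal cells) and VLDLR (8.29, 7.96 and 5.84). In each gene of the list that fell, normal 3 lay above all tumor samples, as in the called cytosolic synthetases.

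Of 14 kinases, subunits and partners of eIF2, 2 fell and 1 rose, where 9.44% of all genes fell and 8.56% rose. EIF2AK4, the gene of GCN2, was at 7.0, 6.98 and 6.76 in tumor cells, against 8.30, 7.94 and 7.74 in normal cells. It fell by 1.08 ± 0.16 on the log2 scale (adjusted p = 0.00443), a call kept in each of the 6 fits with 1 sample left out. EIF2AK3, the kinase PERK of the endoplasmic reticulum, rose by 0.69 ± 0.14, which did not hold without tumor replicate 2 or normal replicate 2. EIF2B5, of the exchange factor of eIF2, fell by 0.48 ± 0.13, a call lost without any sample except normal replicate 1, in whose absence 4 genes of the list fell. Of 27 genes of amino acid sensing and mTORC1, 2 rose and 1 fell with a median of 0.10. Neither count is a larger share than that of all genes. Without normal replicate 1, 2 rose and 4 fell, without tumor replicate 1 or 2 none rose or fell, and without normal replicate 2 or 3 only 1 rose. SESN3, of the sestrin family, rose by 1.71 ± 0.37, but the call did not hold without tumor replicate 1 or 2. TSC2, of the complex that restrains mTORC1, rose by 0.53 ± 0.13 and DEPDC5, of the GATOR1 complex, fell by 0.48 ± 0.12, both lost without any sample except normal replicate 1.

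Mitotic genes also had lower values in tumor cells. Of 16 measured, 14 fell and 0 rose (10 to 14 fell with 1 sample left out), where 9.44% of all genes fell and 8.56% rose. The median log2 fold change was -1.54, and PLK1 fell by 1.81 ± 0.24. The mean deviation of this list was -1.23, -0.41 and -0.58 in tumor cells, against 0.40, 0.48 and 1.34 in normal cells. Tumor 1 thus had the lowest mean for mitosis and for the cytosolic synthetases. In the synthetases it lay close to tumor 2, at -0.36 and -0.33, and each was the lowest tumor sample for 8 of 17 enzymes. Normal 3 was highest for mitosis and normal 2 for the cytosolic synthetases. The part of proliferation in the result was not tested.

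**Figure D5:**
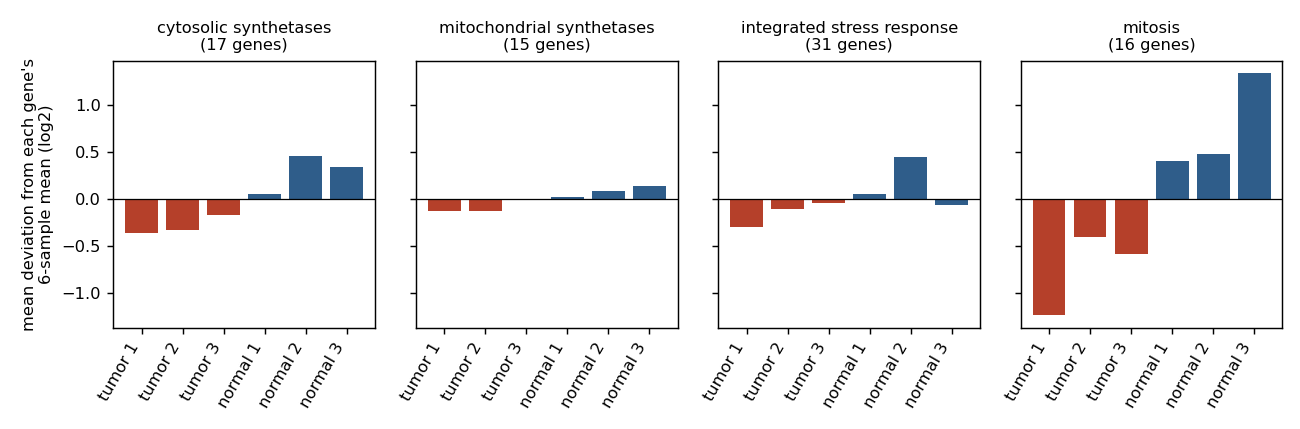
Mean deviation (y axis, log2) of the genes of 4 groups from each gene's own mean over the 6 samples, for the 3 tumor samples (red) and the 3 normal samples (blue), starting at 0. The cytosolic synthetases and the mitotic genes have all tumor bars below 0 and all normal bars above 0. Tumor 1 is the lowest sample in both, while the highest is normal 2 for the cytosolic synthetases and normal 3 for the mitotic genes.

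Both groups carried the markers of fibroblasts. COL1A1, COL1A2, DCN and LUM lay between 11.64 and 12.37 in all samples, and of 15 fibroblast markers 3 rose, PDGFRA, COL3A1 and S100A4, with list means of 10.52 to 10.79 in tumor cells, against 9.84 to 10.42 in normal cells. PDGFRA and COL3A1 lost their calls without tumor replicate 1 or 2, which left 1 fibroblast marker called. Among markers of other cells, EPCAM of epithelium, PTPRC of leukocytes, KDR of endothelium and FSHR of granulosa cells were under 3.54 in each sample, but other markers of the same lists were above it. Both groups were under that level for 5 of 11 epithelial, 6 of 11 leukocyte, 3 of 8 endothelial, 3 of 8 granulosa and 3 of 8 pericyte and smooth muscle markers. Over all genes, 8.56% rose and 9.44% fell, so 1 called marker of 8 or 11 is near those shares. Of 11 epithelial markers, 3 fell, the keratins KRT18, KRT19 and KRT8, with list means of 3.55 to 3.62 in tumor cells, against 3.88 to 4.26 in normal cells. KRT8 lost its call without any sample except normal replicate 3. KRT18 was at 4.54, 4.32 and 4.23 in tumor cells, against 7.50, 7.99 and 5.93 in normal cells. Of 11 leukocyte markers 1 rose, CD68, with list means of 3.38 to 3.50 in tumor cells, against 3.11 to 3.31 in normal cells. CD68 was at 6.68, 6.48 and 6.07 in tumor cells, against 5.17, 5.34 and 5.27 in normal cells. Of 8 endothelial markers 2 rose, EMCN and TIE1, with list means of 4.0 to 4.14 in tumor cells, against 3.80 to 3.84 in normal cells. EMCN was at 9.41, 8.78 and 8.44 in tumor cells, against 6.95, 7.21 and 7.41 in normal cells. TIE1 was under 3.54 in each sample and lost its call without any sample except normal replicate 1. Of 8 granulosa markers 1 rose, INHBB, and 1 fell, FOXL2, with list means of 3.76 to 3.93 in tumor cells, against 3.73 to 3.88 in normal cells. FOXL2 was at 3.48, 3.49 and 3.08 in tumor cells, which is under 3.54, against 4.96, 4.99 and 5.16 in normal cells. NR5A1, a factor of steroid-producing cells, was at 5.67, 5.71 and 5.65 in tumor cells, against 5.46, 5.74 and 5.29 in normal cells. Of 8 pericyte and smooth muscle markers 3 rose and 2 fell, with list means of 4.48 to 5.38 in tumor cells, against 4.49 to 4.54 in normal cells. None of these 8 rose without tumor replicate 2 or normal replicate 2, and 1 rose without normal replicate 1 or 3. The 3 that rose were MYH11 (1.92 ± 0.50), NOTCH3 (1.42 ± 0.31) and ABCC9 (1.26 ± 0.32), and those that fell were CSPG4 (-0.75 ± 0.14) and DES. DES, which lost its call without normal replicate 2, was at 11.17, 10.93 and 10.26 in tumor cells, against 11.76, 11.95 and 11.94 in normal cells. The part of these cell types in the synthetase result was not tested.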

How the data were processed

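RNA of cultured stromal fibroblasts, 3 samples from ovarian tumor and 3 from normal ovary, carried a biotin label and was measured on microarrays. Per the submitters' processing notes, the deposited log2 values came from RMA; its version is not given in the sources used here. Groups and replicate numbers came from the sample titles. Scanner intensities, detection calls, slides and scan dates were not used here. Batches were thus not examined, and the small number of samples limits the precision.

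Gene names came from GEO's annotation of the platform, parts of which may be outdated. Among 24415 rows, 18457 carried a single symbol, 688 carried more and 5270 stayed unnamed. For 17996 rows the Entrez identifier was found in RefSeq's table for ARS-UCD2.0, used for names and neighbouring genes only. Each of 18010 genes was represented by its row with the highest mean.

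The 2 groups were set against each other in limma 3.58.1 under R 4.3.3 (lmFit and eBayes on all genes, two-sided, without covariates), with Benjamini-Hochberg adjustment over all of them and a threshold of 0.05. Fold changes are tumor minus normal, with standard errors. No set test was made. In data simulated for the 18010 genes of this comparison, the fit recovered 6% of 50 genes changed by 0.5 on the log2 scale and 72% of 50 changed by 1, with 3 false calls. Only 50 genes at each of the sizes 0.5, 1, 2 and 3 were changed there, against 3242 genes called in the data. The adjustment was thus stricter in the simulation, and its shares do not give the power in the data.

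The members and the 15 gene lists were chosen from textbook knowledge with earlier results of these data known. Values in every sample were to be given for called members and for the uncalled member with the largest change in each place, and from each list up to 6 called genes with the largest change. Further genes were added after their values were seen. Alternatives were other normalizations, filters on dim rows, variance models, array weights, a replicate block, other thresholds and leaving out each sample in turn. Same-numbered tumor and normal samples did not deviate together (correlations of 0.05, -0.08 and 0.07), so the numbers were not taken as pairs.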

Additional observations from a re-analysis of the deposited data

How the results depend on the processing

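With 1 sample left out, the number of genes called ran from 1765 to 3226, of cytosolic synthetases from 2 to 12 and of mitochondrial synthetases from 1 to 2; these fits have fewer samples and so less power. Array weights gave 5054 genes, 14 cytosolic and 4 mitochondrial synthetases, and moved the cytosolic median to -0.71. An adjusted p under 0.01 left 1297 genes, 2 cytosolic synthetases and 1 mitochondrial synthetase, and an adjusted p under 0.1 gave 5 mitochondrial synthetases, HARS2 among them as higher. With the replicate block, 8 cytosolic synthetases and 1 mitochondrial synthetase fell and 2895 genes were called, with IARS1, HARS1 and SARS2 the members that lost their call; the tumor and normal samples share only numbers. Signs turned only in members that were not called. PARS2 was at 0.0106 with quantile normalization and 0.00667 with median centring, and with array weights QARS1 was at -0.0151 and EARS2 at -0.0147. With 1 sample left out, KARS1 ran from -0.085 to 0.03, CARS2 from -0.283 to 0.0717, NARS2 from -0.16 to 0.08, PARS2 from -0.113 to 0.0867, EARS2 from -0.0133 to 0.157 and AIMP1 from -0.123 to 0.0167. With a mean-variance trend RARS1, EPRS1 and IARS2 also fell, and RARS1 and IARS2 also with either filter on dim rows; adjustment over all rows lost IARS1. The cause was not tested. The counts over all genes and over both compartments stayed within 1.5 times under the other alternatives. MARS2, near the olfactory receptor level, is limited by its signal. Leaving out samples was added for the fixed lists after seeing the data.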
